A study of Mus musculus with 8 samples.

Results

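Matrix metalloproteinases and their tissue inhibitors were followed in 4T1 cells, a mouse mammary carcinoma line, after acetate treatment. The members were 9 genes fixed by name: the proteases Mmp3, Mmp9, Mmp10, Mmp13, Mmp14 and Mmp15 and the inhibitors Timp1, Timp2 and Timp3. The deposited table held 8 of the 9, 6 proteases and 2 inhibitors, among 20189 genes. Timp3 was not analysed here. The study asked how acetate, a source of acetyl-CoA, alters transcription in these cells. Wild-type 4T1 cells were cultured for 48 h either with 5 mM acetate (4 libraries) or with its vehicle, water (4 libraries), in serum-containing medium, and polyadenylated RNA was sequenced. Each acetate library was paired by number with a vehicle library, and a shared experiment code in the labels marks each pair. All 8 libraries come from 1 cultured line grown without host tissue, so that stromal sources of these proteases in a tumour are not part of the model.

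Matrix metalloproteinases are zinc-dependent endopeptidases that cleave collagens, laminins, proteoglycans and many cell surface and secreted proteins. Most are made as inactive proenzymes that need removal of a propeptide, and the tissue inhibitors of metalloproteinases block the active enzymes by occupying the catalytic cleft. In mammary carcinoma they are best known for matrix remodelling around invading cells, and many of them can come from stromal cells as well as tumour cells. A transcript level therefore reports the supply of proenzyme or inhibitor and not enzyme activity.

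Acetate treatment was accompanied by a rise of 3 of the 6 proteases and 1 of the 2 inhibitors. Mmp3 (stromelysin) rose by 0.54 on the log2 scale with closely similar changes in the 4 pairs. Mmp13 (a collagenase) rose by 0.65 and Mmp10 (a further stromelysin) by 0.37, both with uneven changes among pairs. Timp2 rose by 0.13. Mmp9, Mmp14, Mmp15 and Timp1 did not pass the test. No member fell after adjustment in limma, blocked edgeR or DESeq2. At an unadjusted p under 0.05, 0 members were lower in limma and DESeq2, and 1, Mmp9, was lower in blocked edgeR. Of all genes tested, 5.99% passed as higher and 2.65% as lower, against 4 and 0 of the 8 members. The members were chosen with earlier results of these data known, so these shares are a description and not a test. The median change of the members was 0.16 and that of all 20189 genes 0.02. A mean of at least 100 normalised reads was reached by 7 of the 8 members, and among the 10292 genes at or above that mean 9.89% passed as higher and 5.08% as lower. The same 4 members passed with median-of-ratios scaling, with quantile scaling and in blocked edgeR, in which 4.95%, 5.2% and 6.51% of all genes passed as higher. In DESeq2 and with a pseudocount of 0.1, 3 members passed and Mmp13 did not, while 653 and 994 genes passed as higher. Leaving out pairs 1, 2, 3 and 4 in turn left 4, 1, 1 and 2 members higher, against 5.46%, 2.33%, 1.64% and 1.99% of all genes, and without pair 1 there were 0 members lower, against 2.77%.

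Values are normalised read counts, scaled so that each library totals 20000000, and changes are acetate minus vehicle on log2(normalised reads + 1). The test is limma with the pair as a block and Benjamini-Hochberg adjustment over all 20189 genes at a threshold of 0.05. The libraries held 19895088 to 29305620 recovered reads. Pair 1 stood apart from the others, with 341 of 10840 genes over 4-fold from the other pairs against 0 to 66 for each other pair. Without the block, limma called 0 of the 20189 genes (353 at an unadjusted p under 0.05), edgeR called 0 (295 at an unadjusted p under 0.05), and every member had an adjusted p of 1.00 in the unblocked limma fit. The pair accounted for 83.8% to 99.0% of the variance of each member and acetate for 0.449% to 16.0%, so that the vehicle and acetate libraries overlapped for all 8 members. This was common in the whole table. Over the 18188 genes with a mean above 1, the median shares were 84.8% for the pair and 3.48% for acetate. Only 1.59% of the 10292 genes with a mean of at least 100 did not overlap. Each rise below is therefore a difference within pairs. An exact sign-flip permutation test over 4 pairs cannot give a two-sided p below 0.125. The 10 epithelial markers were all present, with sums of 50795 to 75649 normalised reads per library. Of these, 3 rose and 0 fell in limma (4 and 1 at an unadjusted p under 0.05). All 10 had a mean of at least 100, where 9.89% of all genes passed as higher and 5.08% as lower. Krt19 rose by 0.40 (adjusted p 0.000254), Cldn4 by 0.30 (0.000319) and Cdh1 by 0.15 (0.00592, lost without pair 2 at 0.0580 or pair 3 at 0.0689). The other 7 did not pass, and the median change of the 10 was 0.03. Krt8 (-0.06, lower in 4 of 4 pairs), Krt18 (-0.05), Cldn7 (-0.04), Grhl2 (-0.03) and Esrp1 (-0.005) had estimates below 0. Epcam (0.07) and Cldn3 (0.15) were above it.

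Mmp3, Mmp10 and Mmp13 lie in 1 gene cluster on chromosome 9, and the 250 bases upstream of their RefSeq starts are shown because all 3 hold the same motif and all 3 genes rose. The windows are given 5′ to 3′ on the plus strand of GRCm38.p6, and capitals mark TGANTCA, the recognition sequence of AP-1, a dimer of Fos and Jun family proteins long known at metalloproteinase promoters. The windows are chr9:7445572-7445821 for Mmp3, chr9:7502092-7502341 for Mmp10 and chr9:7272264-7272513 for Mmp13. No annotated exon overlaps them.
Mmp3: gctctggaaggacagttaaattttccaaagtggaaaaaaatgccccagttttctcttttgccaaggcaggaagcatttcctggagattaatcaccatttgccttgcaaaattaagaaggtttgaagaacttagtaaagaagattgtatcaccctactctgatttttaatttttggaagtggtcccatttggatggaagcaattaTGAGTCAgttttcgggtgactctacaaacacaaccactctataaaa
Mmp10: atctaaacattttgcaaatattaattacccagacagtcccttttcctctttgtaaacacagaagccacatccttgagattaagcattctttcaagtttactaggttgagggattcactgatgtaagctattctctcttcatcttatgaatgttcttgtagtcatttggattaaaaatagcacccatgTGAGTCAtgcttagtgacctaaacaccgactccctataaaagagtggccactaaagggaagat
Mmp13: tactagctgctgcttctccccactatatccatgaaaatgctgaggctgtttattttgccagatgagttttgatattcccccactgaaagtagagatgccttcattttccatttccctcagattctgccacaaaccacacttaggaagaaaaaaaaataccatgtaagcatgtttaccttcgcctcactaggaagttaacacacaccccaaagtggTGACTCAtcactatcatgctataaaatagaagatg

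The motif ended 40 bases before the start of Mmp3 and 57 bases before that of Mmp10, in both as TGAGTCA. In Mmp13 it read TGACTCA and ended 29 bases before the start. Both strands were searched, and 6.75% of 32851 such windows in RefSeq held at least 1 match. Of the 9 members 8 had a window, and the motif was in none of those of Mmp14, Mmp15, Timp1, Timp2 and Timp3. Mmp9 had no entry in the table of windows. The motif was not limited to genes that rose: the windows of Mmp1a and Mmp1b and 1 of the 2 windows of Mmp12, neighbours in the cluster that did not pass the test, also held it, as TGAGTCA. The window of Mmp28, a further metalloproteinase gene that rose, had 0 matches. The core TATA letters TATAAA, found in 12.4% of all windows, were in those of Mmp3, Mmp10 and Mmp13, in no other member's, and also in those of Mmp1a and Mmp1b. The letters AGGAAG, an ETS family core present in 29.5% of all windows, occurred 2 times for Mmp13 and for Timp1, 1 time for Mmp3, Mmp14 and Timp3, and 0 times for Mmp10, Mmp15 and Timp2. Among the tested genes with a window, 9.53% of the 745 with the AP-1 motif passed as higher and 2.95% as lower, against 7.79% and 3.53% of the 11075 without it. A match is a run of letters and says nothing of whether a factor was bound.

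Mmp3 (ENSMUSG00000043613, chromosome 9, 7445822 to 7455975, GRCm38) encodes a stromelysin that degrades proteoglycans, laminin and fibronectin and can activate other metalloproteinase proenzymes. In pairs 1 to 4 its vehicle level was 1315, 3597, 3143 and 3830 normalised reads, and its acetate level was 1942, 4974, 4519 and 5846. Each acetate library was above its own vehicle library, but the acetate library of pair 1 was below 3 of the 4 vehicle libraries. The group means were 2971 ± 1141 in vehicle and 4320 ± 1679 in acetate (SD, n = 4). The changes in pairs 1 to 4 were 0.56, 0.47, 0.52 and 0.61, a range of 0.14 over a 2.91-fold span of vehicle levels. The limma estimate was 0.54 (SE 0.03, 95% interval 0.47 to 0.61), with an adjusted p of 8.19e-06. Leaving out each pair in turn kept it between 0.52 and 0.57, with every adjusted p under the threshold.

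Mmp10 (ENSMUSG00000047562, chromosome 9, 7502352 to 7510240), a stromelysin with substrates much like those of Mmp3, was far less abundant. Its vehicle levels in pairs 1 to 4 were 80.2, 357, 299 and 165 normalised reads, and its acetate levels were 111, 401, 342 and 259. Acetate was higher in 4 of 4 pairs, by 0.47, 0.16, 0.19 and 0.65, and the larger changes were those of pairs 1 and 4, in which the vehicle level was lowest. The means were 225 ± 126 and 278 ± 125 (SD, n = 4), and the limma estimate was 0.37 (SE 0.09, 95% interval 0.18 to 0.56, adjusted p 0.0210). The call was lost without pair 2 (adjusted p 0.0505), pair 3 (0.0845) or pair 4 (0.141) in limma, with estimates of 0.44, 0.43 and 0.28. Mmp3 and Mmp10 transcripts share 65 runs of 75 bases, 3.76% of those of Mmp3 and 3.94% of those of Mmp10, so a small part of their reads could be placed on either gene.

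Mmp13 (ENSMUSG00000050578, chromosome 9, 7272514 to 7283331) encodes collagenase, which cuts fibrillar collagens across the triple helix. Its vehicle levels in pairs 1 to 4 were 34.4, 594, 400.1 and 257 normalised reads, a 17.3-fold span that was the widest of the 8 members. Its acetate levels were 96.5, 678, 449 and 445. All 4 pairs were higher in acetate, with changes of 1.46, 0.19, 0.17 and 0.79, and as for Mmp10 pairs 1 and 4 changed most. The means were 321 ± 236 and 417 ± 240 (SD, n = 4). The limma estimate of 0.65 (SE 0.17, 95% interval 0.29 to 1.02, adjusted p 0.0339) rested in size on pair 1, without which it was 0.38 (adjusted p 0.0444). The call was lost without pair 2 (adjusted p 0.0505), pair 3 (0.0915) or pair 4 (0.237). DESeq2 on recovered reads gave 0.61 with an adjusted p of 0.192, whereas blocked edgeR gave 0.43 with an adjusted p of 0.00669.

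**Figure D1:**
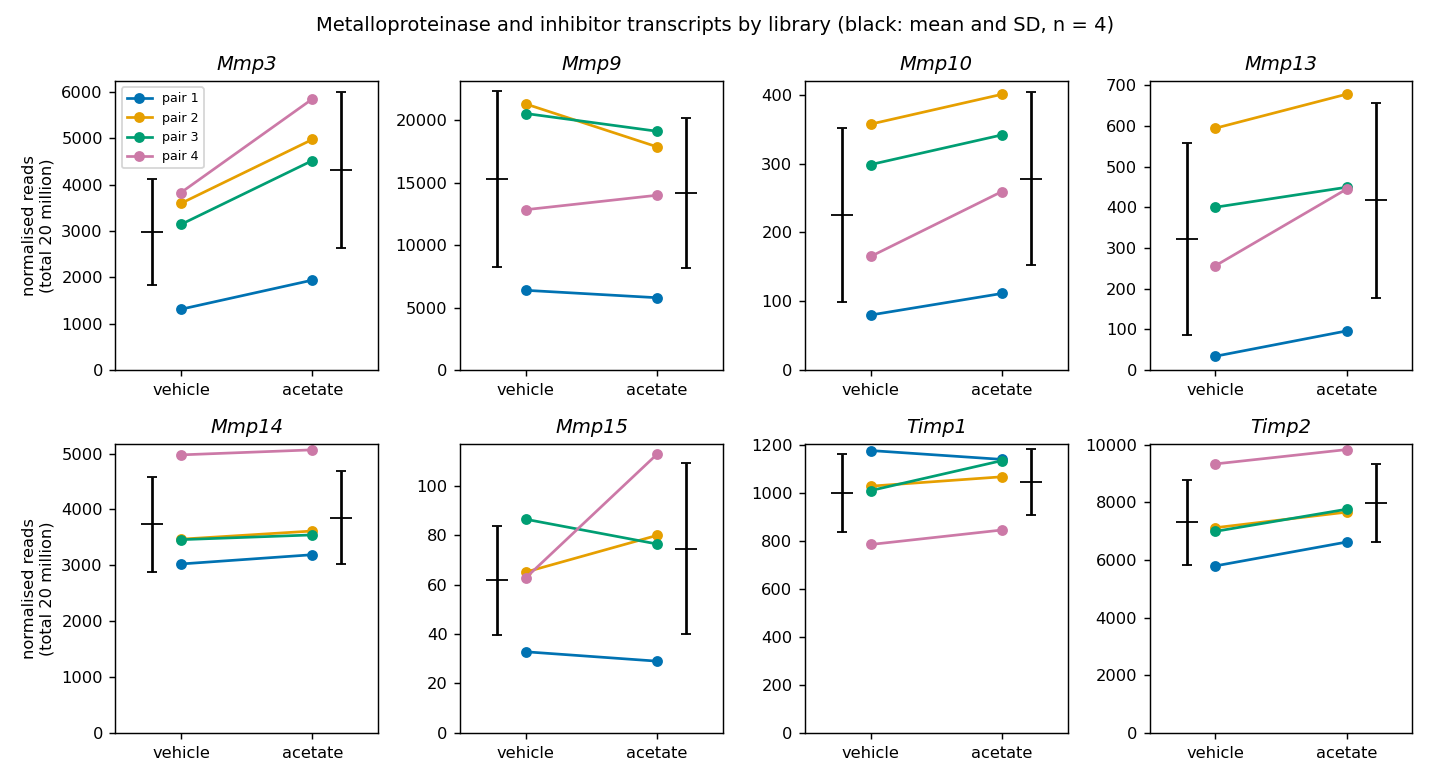
Normalised read count of each member (vertical axis, linear from 0, library total 20000000) in vehicle and acetate, with 1 line per pair and black marks for the mean and SD of 4 libraries. All 4 lines rise for Mmp3, Mmp10, Mmp13, Mmp14 and Timp2, while the spread between pairs is wider than the step from vehicle to acetate.

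Mmp9 (ENSMUSG00000017737, chromosome 2, 164940780 to 164955850), a gelatinase that cleaves denatured collagen and basement membrane collagen, was the most abundant member. In pairs 1 to 4 it stood at 6389, 21288, 20527 and 12837 normalised reads in vehicle and at 5797, 17860.1, 19108 and 13993 in acetate. It was lower in pairs 1 to 3, by changes of -0.14, -0.25 and -0.10, and higher in pair 4 by 0.12. The limma estimate was -0.09 (SE 0.05, 95% interval -0.20 to 0.01, adjusted p 0.273), so a rise of the size seen for Mmp3 lay outside its interval. Over the alternatives its estimate ranged from -0.17 without pair 4 to -0.04 without pair 2, with no adjusted p under the threshold. It came nearest without pair 4 (adjusted p 0.0527) and in blocked edgeR (-0.11, adjusted p 0.0684).

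Mmp14 (ENSMUSG00000000957, chromosome 14, 54431612 to 54445364) and Mmp15 (ENSMUSG00000031790, chromosome 8, 95352268 to 95375080) are anchored in the plasma membrane, where Mmp14 cleaves collagen next to the cell and, together with Timp2, activates the Mmp2 proenzyme. Mmp14 held 3025, 3469, 3460.2 and 4978 normalised reads in vehicle and 3190.2, 3614, 3545 and 5068 in acetate. It was higher in all 4 pairs, but by only 0.08, 0.06, 0.03 and 0.03. Its limma estimate was 0.05 (SE 0.03, 95% interval -0.01 to 0.11, adjusted p 0.302). Among genes with a mean of at least 100, 21.6% were higher in 4 of 4 pairs and 18.2% lower in 4 of 4. Mmp15 was sparse, at 32.8, 65.1, 86.5 and 62.8 normalised reads in vehicle and 29.0, 79.96, 76.4 and 113 in acetate. Its pairs went both ways, with changes of -0.17, 0.29, -0.18 and 0.84, and the estimate of 0.20 (SE 0.17, adjusted p 0.556) became -0.018 without pair 4.

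Timp2 (ENSMUSG00000017466, chromosome 11, 118301069 to 118355740) both inhibits metalloproteinases and bridges Mmp14 to the Mmp2 proenzyme. Its vehicle levels in pairs 1 to 4 were 5794, 7119, 6992 and 9331 normalised reads, and its acetate levels were 6622, 7659.5, 7760.2 and 9829. The 4 changes of 0.19, 0.11, 0.15 and 0.08 were small and alike. Mean levels were 7309 ± 1474 in vehicle and 7968 ± 1343 in acetate (SD, n = 4), and the limma estimate was 0.13 (SE 0.03, 95% interval 0.07 to 0.19, adjusted p 0.0123). The call was lost without pair 2 (adjusted p 0.0660) or pair 3 (0.110).

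Timp1 (ENSMUSG00000001131, chromosome X, 20870166 to 20874735), a secreted inhibitor that binds the Mmp9 proenzyme as well as active enzymes, lies within the span of Syn1 on the opposite strand. It stood at 1177, 1029, 1010.3 and 786 normalised reads in vehicle and at 1140.3, 1068, 1135 and 846 in acetate. Pair 1 changed by -0.05 and pairs 2 to 4 by 0.05, 0.17 and 0.11. The estimate was 0.07 (SE 0.04, 95% interval -0.02 to 0.16, adjusted p 0.350). It was 0.11 without pair 1 (adjusted p 0.146) and 0.038 without pair 3 (0.719). Unlike the other members, Timp1 was highest in pair 1 and lowest in pair 4 in vehicle.

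**Figure D2:**
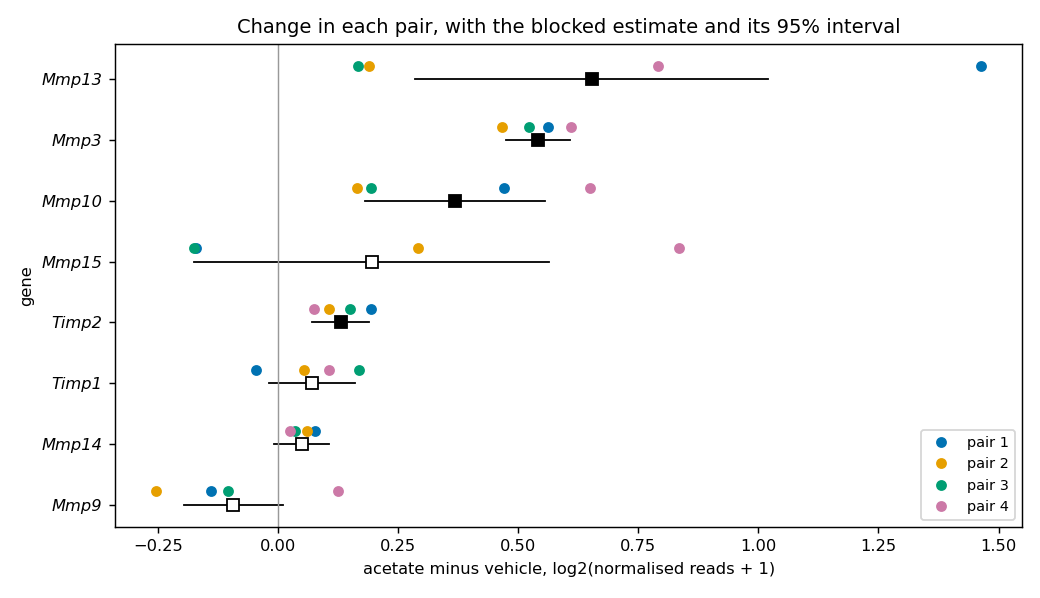
Change of each member in each pair (coloured points) with the blocked limma estimate (square) and its 95% interval (line), on log2(normalised reads + 1), acetate minus vehicle. Filled squares passed the test; the 4 points of Mmp3 span 0.14 and those of Mmp13 span 1.30.

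Levels were compared between genes per length, as normalised reads per kb of merged exon. In vehicle, the order was Mmp9 (4312 ± 1989), Timp2 (1876 ± 378), Mmp3 (1650 ± 633), Timp1 (1127 ± 182), Mmp14 (626 ± 144), Mmp10 (131 ± 73.0), Mmp13 (120 ± 88.3) and Mmp15 (11.4 ± 4.09; SD, n = 4). Counting all 8 libraries, Timp1 exceeded Mmp14, Mmp14 exceeded Mmp10 and Mmp13 exceeded Mmp15 in 8 of 8. Mmp9 was above Timp2 in 7, the exception lying in pair 1. Timp2 was above Mmp3 in 3 of 4 vehicle libraries and 1 of 4 acetate libraries, and the acetate means had the opposite order (2045 ± 345 for Timp2 and 2399 ± 932 for Mmp3). Mmp10 was above Mmp13 in 2 of 4 libraries of each group. Neither pair of neighbours differed beyond the spread between libraries.

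The summed level of the 6 proteases per kb was 1.11, 3.03, 2.89 and 2.07 times that of both inhibitors in the vehicle libraries of pairs 1 to 4. In acetate the ratio was 1.13, 2.81, 2.72 and 2.41, up in pairs 1 and 4 and down in pairs 2 and 3. Mmp9 supplied 58.1%, 66.6%, 68.5% and 53.4% of the protease sum in vehicle and 48.8%, 56.6%, 60.8% and 47.1% in acetate, a lower share in every pair. With Mmp9 left out of the sum, a description chosen after its share was seen, the ratio was 0.463, 1.01, 0.909 and 0.965 in vehicle and 0.576, 1.22, 1.07 and 1.28 in acetate, higher in 4 of 4 pairs. That sum is mainly Mmp3. The ratio of Mmp3 to Mmp10 per library ran from 10.1 to 23.2 in vehicle and from 12.4 to 22.5 in acetate.

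**Figure D3:**
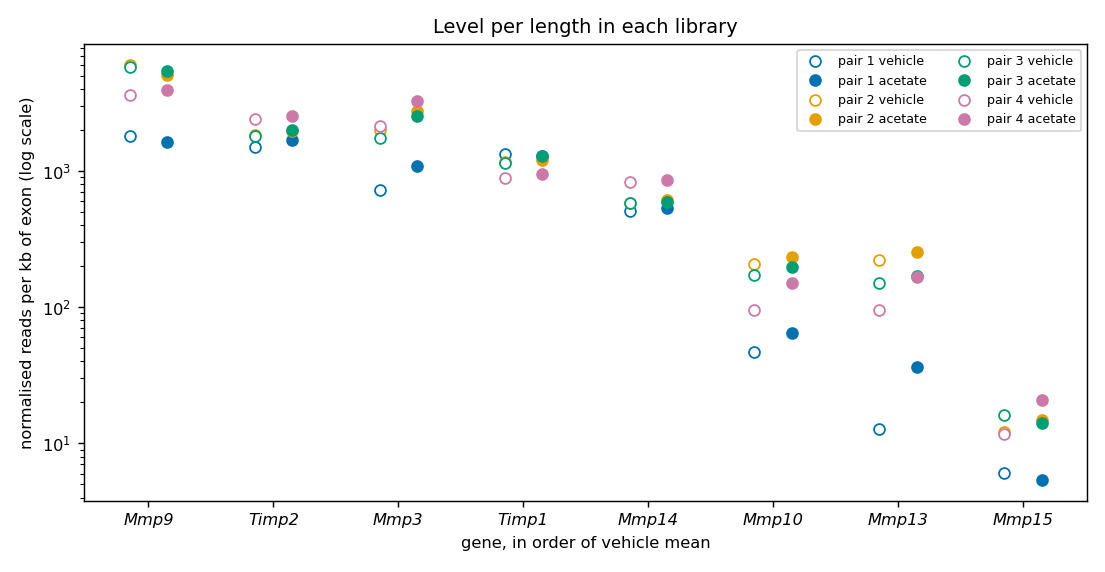
Normalised reads per kb of exon (logarithmic axis) for each member in each library, open for vehicle and filled for acetate, coloured by pair and ordered by vehicle mean. Mmp9 lies highest in all libraries but 1, Mmp15 lowest in all, and pair 1 (blue) is lowest for most proteases.

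The members differed in how they followed the pairs. Over the 8 libraries, on the log2 scale, Mmp10 and Mmp13 had a Pearson r of 0.97, Mmp9 and Mmp10 of 0.94, and Mmp14 and Timp2 of 0.96, whereas Mmp14 and Timp1 had -0.95. These points share the pair differences that dominate the libraries, so they describe those differences. Among 10291 genes with a mean of at least 100, those with the most similar pattern were Sec14l1 (r 0.998) and Ckb (0.996) for Mmp3, Mbd6 and Cklf (both 0.993) for Mmp9, and Lman2l (0.994) and Flt1 (0.993) for Mmp10. They were Depdc5 (0.995) and Amigo1 (0.994) for Mmp13, and Map7 (0.994) and Sbf2 (0.993) for Mmp14. For Timp2 they were Myo5b (0.994) and Dnase2a (0.993), and for Timp1 Spire2 (0.985) and Ndufa4 (0.983).

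The cluster that holds Mmp13, Mmp3 and Mmp10 spans 427 kb of chromosome 9 (7272514 to 7699585) and contains 10 Mmp genes, of which 6 were in the table. Among these, Mmp1a is annotated as a polymorphic pseudogene. From the Mmp13 end, the changes were 0.65 for Mmp13, 0.50 for Mmp12 (a macrophage elastase, adjusted p 0.470), 0.39 for Mmp1b (adjusted p 0.216), 0.54 for Mmp3, 0.52 for Mmp1a (an interstitial collagenase homologue, adjusted p 0.267) and 0.37 for Mmp10. Over the pairs left out in turn, the estimate of Mmp12 ran from 0.22 (without pair 4) to 0.79 (without pair 2). That of Mmp1a ran from 0.26 (without pair 4) to 0.75 (without pair 1). The 6 estimates were all above 0, and only those of Mmp13, Mmp3 and Mmp10 passed. Mmp12 averaged 6.87 normalised reads, Mmp1b 37.6 and Mmp1a 20.6, and Mmp1b shares 12.8% of its 75-base runs with Mmp12 and Mmp1a. The annotated spans of Mmp12 and Mmp1b overlap on opposite strands. The nearest genes in the table outside the cluster were Dync2h1 (0.00), Dcun1d5 (-0.09), Tmem123 (-0.05) and Birc2 (-0.04), none of which passed. Mmp8, Mmp27, Mmp20 and Mmp7 were not analysed here.

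**Figure D4:**
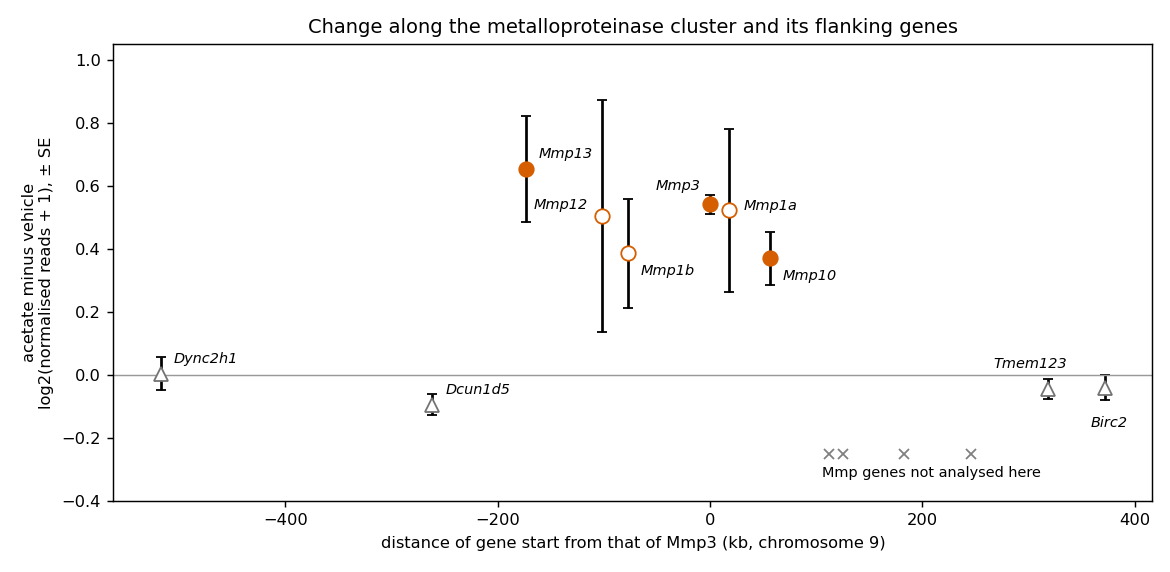
Change on log2(normalised reads + 1), acetate minus vehicle, with its SE, against the distance of each gene start from that of Mmp3 in kb. Circles are metalloproteinase genes and triangles flanking genes, filled where the test was passed; the 6 circles lie between 0.37 and 0.65 and the 4 triangles between -0.09 and 0.00.

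Of 18 further Mmp and Timp genes on a list of the rest of the family, 10 were in the table, 1 rose and 0 fell (3 higher and 0 lower at an unadjusted p under 0.05 in limma). Of all genes, 5.99% passed as higher and 2.65% as lower. The one that rose was Mmp28 (epilysin), with 1.53, 13.02, 14.1 and 21.8 normalised reads in vehicle and 4.71, 19.4, 39.6 and 41.0 in acetate. Its estimate was 1.01 (SE 0.24, adjusted p 0.0255), from as few as 2 reads in a library. It lost the call without pair 2, 3 or 4 (adjusted p 0.0582, 0.161 and 0.130) and in DESeq2 (0.0933), and 9.77% of its 75-base runs occur in another gene. Mmp11 (stromelysin-like, mean 580.2 in vehicle), Mmp19, Mmp23 and Mmp24 had estimates of 0.10, 0.31, 0.44 and 0.34 and did not pass. Without pair 1 the estimate of Mmp11 was 0.0023 and that of Mmp23 was 0.13, and without pair 3 they were 0.17 and 0.78. Mmp19 and Mmp24 share sequence with other genes, as 23.2% of the 75-base runs of Mmp19 and 12.2% of those of Mmp24 occur elsewhere. Mmp2, the proenzyme that Mmp14 and Timp2 handle, was singled out after its values were seen and averaged 4.82 normalised reads over the 8 libraries.

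The related ADAM and ADAMTS proteases, which shed surface proteins or cut proteoglycans, were 21 of 29 in the table, with 6 higher and 1 lower. Of the 21, 15 had a mean of at least 100, where 9.89% of all genes passed as higher and 5.08% as lower. Adamts9, Adamts7 and Adamts4, all cleaving matrix proteoglycans or other matrix proteins, rose by 0.56 (adjusted p 0.000761), 0.54 (0.000458) and 0.47 (0.000263). Adamts4 went from 203, 709, 633 and 783 normalised reads in vehicle to 285, 954, 829.5 and 1177 in acetate. Adamts10, linked to fibrillin microfibrils, rose by 0.27 (adjusted p 0.0238) and lost the call when pair 1, 2, 3 or 4 was left out (adjusted p 0.0514, 0.0571, 0.0878 and 0.144). It also lost the call in DESeq2. Adam15 rose by 0.16 (adjusted p 0.0220), a call lost without pair 1 (0.0657), pair 3 (0.157) or pair 4 (0.0880). Adam17 rose by 0.15 (adjusted p 0.0109), lost without pair 2 (0.0524), pair 3 (0.109) or pair 4 (0.0895). Adam12 fell by 0.31 (adjusted p 0.00322), a call lost without pair 3 (adjusted p 0.0524). The median change of the 21 was 0.15.

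Genes that activate or restrain metalloproteinases gave 6 higher and 1 lower among 16 in the table of 21 listed. Of the 16, 14 had a mean of at least 100, where 9.89% of all genes passed as higher and 5.08% as lower. Plat, the tissue plasminogen activator whose product plasmin can open proenzymes, rose by 0.87 (SE 0.05, adjusted p 9.24e-06), from 56.5, 364, 330 and 609 normalised reads to 104, 685, 591 and 1105. Serpine2, a serine protease inhibitor, rose by 0.23 (adjusted p 0.00482), and the call was lost without pair 2 (0.0512) or pair 4 (0.0738). Reck, a membrane-anchored inhibitor of metalloproteinases, rose by 0.52 (SE 0.08, adjusted p 0.00335). Lcn2, which binds and stabilises Mmp9, rose by 0.64 (adjusted p 0.00431), with calls lost without pair 3 (0.0705) or pair 4 (0.0576). Bsg, an inducer of metalloproteinases, and Lrp1, an endocytic receptor for them, rose by 0.18 (adjusted p 0.00460) and 0.11 (0.0346). Bsg lost the call without pair 2 (0.0540) or pair 4 (0.0570), and Lrp1 without pair 2 (0.222), pair 3 (0.126) or pair 4 (0.165). Plaur, the urokinase receptor, fell by 0.17 (adjusted p 0.00856), and the call was lost without pair 2 (0.0514) or pair 3 (0.0779). The median of the 16 was 0.06.

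Of 19 transcription factors known at metalloproteinase promoters, all in the table, 0 rose and 1 fell in limma (2 higher and 2 lower at an unadjusted p under 0.05). All 19 had a mean of at least 100, where 9.89% of all genes passed as higher and 5.08% as lower. Fosl1, an AP-1 subunit, had 2751, 1765, 2444 and 1319 normalised reads in vehicle and 2416, 1512, 1673 and 1178.0 in acetate, lower in 4 of 4 pairs. It fell by 0.28 (SE 0.05, adjusted p 0.00934), and the call was lost without pair 4 (0.0597). Other AP-1 subunits did not pass, with estimates of 0.27 for Fos, -0.11 for Jun and Jund, -0.10 for Fosb, -0.08 for Junb and 0.09 for Fosl2. Their pairs went both ways, with acetate higher in 3 of 4 for Fos and Fosl2 and in 2 of 4 for Jun, Jund, Fosb and Junb. The levels of these factors are transcript levels and not binding. The median change of the 19 was -0.03.

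**Figure D5:**
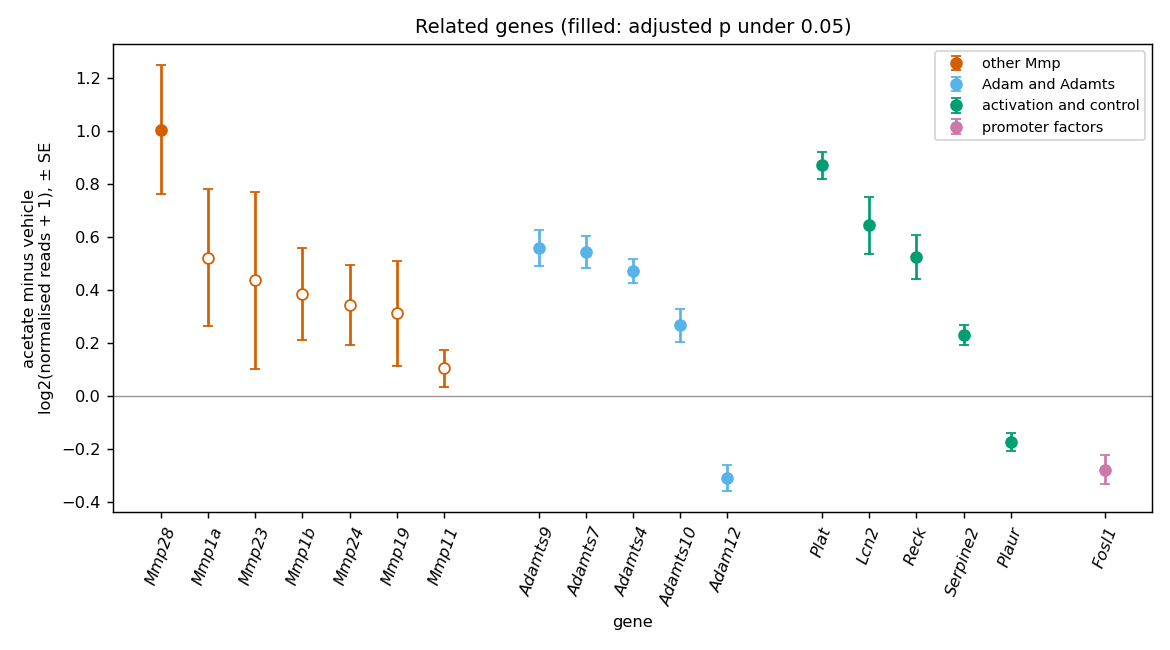
Limma estimate and SE of the named related genes on log2(normalised reads + 1), acetate minus vehicle, grouped by list and filled where the test was passed. Plat and Mmp28 lie highest at 0.87 and 1.01, and Adam12, Fosl1 and Plaur lie below 0.

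Genes used as markers of stromal cells moved with treatment in part, in cultures of 1 line grown without host tissue. Of 8 fibroblast markers 5 were in the table, with sums of 234 to 1527 normalised reads in vehicle and 399 to 2005 in acetate. Nearly all of that sum was Pdgfra, which rose by 0.52 from a mean of 994, while Dcn, Col1a2 and Fap averaged 5.58, 1.19 and 4.63. Pdgfrb, at a mean of 16.7, rose by 1.40, a call lost without pair 2 (adjusted p 0.0732) or pair 3 (0.09997). Of 8 leukocyte markers 3 were in the table, with sums of 17.1 to 26.9 in vehicle and 33.0 to 49.3 in acetate. Csf1r averaged 20.8 and rose by 1.08, a call lost without pair 4 (adjusted p 0.0671). S100a8 averaged 9.94 and was higher in 4 of 4 pairs (0.62, adjusted p 0.212), and Ptprc, carried by all leukocytes, averaged 2.26. The 4 of 6 endothelial markers in the table summed to 2.44 to 8.19 in vehicle and 3.77 to 10.5 in acetate. The part of these markers in the changes of the metalloproteinases was not tested. In bulk RNA, more cells that express a marker and more RNA of it per cell cannot be told apart.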

How the data were processed

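RNA of 4T1 cells (4 vehicle and 4 acetate libraries) was sequenced by the authors from stranded Illumina mRNA libraries. The labels name STAR, HTSeq and GRCm38 (mm10), and whether counting used strand is not given in the sources used here. The deposited values are a normalised signal: gene read counts scaled by the authors to a fixed library total and kept where a gene was above 0 in at least 4 of 8 libraries. Values were whole multiples of 1 read in 100% of entries (tolerance 0.05 reads), so reads were recovered for edgeR and DESeq2. In vehicle replicate 3 a unit is nearly 1 read (1.00527).

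Groups came from the labels. The members and gene lists were chosen with earlier results of these data known. The main test was limma 3.58.1 (R 4.3.3; lmFit, eBayes with trend) on log2(value + 1), with the pair as a block, Benjamini-Hochberg over 20189 genes. The labels give each pair 1 experiment code, and deviations from the group means correlated within pairs 1 to 4 at 0.81, 0.27, 0.20 and 0.69 over 18188 genes. The study counts the 4 replicates as independent experiments. Nothing says more on how these were separated, so p-values measure the spread between these pairs. Exon lengths and coordinates came from GENCODE M21 (GRCm38) and promoter windows from RefSeq (GRCm38.p6). Named by rule were all members, other Mmp and Timp genes with a mean of at least 10, up to 4 called genes per direction and list with a mean of at least 100, and the 2 most alike genes per member. Genes named outside this rule (Mmp2, Mmp12, the genes flanking the cluster, Adam15, Adam17, the cell type markers given singly, Bsg, Lrp1 and the AP-1 subunits other than Fosl1) were added after their values were seen. A gene of the activation list is not reported here. Alternatives were no block, pseudocounts 0.1 and 5, a mean filter of 10, median-of-ratios and quantile scaling, edgeR 4.0.16, DESeq2 1.42.0 and each pair left out. The tests were checked on simulated data.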

Additional observations from a re-analysis of the deposited data

Results flagged for a closer look

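None of the members had a library far from the rest of its group. Among the 52 groups of 4 libraries examined (26 genes, vehicle and acetate), 7 had 1 library whose distance to the nearest other library, divided by the spread from lowest to highest, was above Dixon's critical value for 4 values, and about 2.6 would be so by chance. All 7 were libraries of pair 1.

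Pair 1 was lowest for 4 genes. Adamts7 in vehicle had 157 normalised reads against 475 to 537 in the other libraries (ratio 0.838), and Adamts10 in acetate had 246 against 525 to 575 (0.847). Reck had 42.0 against 128 to 136 in vehicle (0.914) and 62.8 against 183 to 194 in acetate (0.912). Serpine2 in vehicle had 1466 against 5057 to 5704 (0.847).

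It was highest for Plaur, which had 3399 against 1896 to 2087 in vehicle (0.873) and 2817 against 1763 to 1861 in acetate (0.907). Without pair 1 the lists gave 4 members higher and 0 lower, 1 and 0 further Mmp and Timp genes, 4 and 1 ADAM and ADAMTS genes, 6 and 1 activation and control genes, and 0 and 1 promoter factors. Of all genes, 5.46% passed as higher and 2.77% as lower without pair 1.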

How the results depend on the processing

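Without the replicate block 0 genes and 0 members were called in limma, and 0 and 0 in edgeR, the latter chosen after seeing the data. With the block, 1744 genes and 4 members were called higher or lower in limma. DESeq2 called 1126 genes and 3 members. Leaving out each pair gave 409 to 1662 genes (617, 409 and 539 without pairs 2, 3 and 4) and 1 to 4 members (1, 1 and 2 without those pairs), from fewer libraries. Mmp15 ran from -0.018 (without replicate 4) to 0.32 over the pairs left out. The cause of the other differences was not tested. Of calls, 69.3% were higher in limma, 54.9% with median-of-ratios scaling, 60.5% with quantile scaling and 54.8% in blocked edgeR, which called 2400 genes (1388 without pair 3, added after seeing the data). Scaling moved the median change of all genes from 0.02 to between -0.01 and 0.00, and the 4 members called higher passed under all 3. Over 26 named genes and 14 alternatives, 302 of 364 values kept their direction and side of the threshold, 61 lost a call and 1 reversed. Mmp3 lost its call only in the 2 fits without a block. Mmp13 also lost it with a pseudocount of 0.1 (adjusted p 0.0769). Low counts limit Mmp15, Mmp28 and the other genes with means under 100 normalised reads.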
